A study of Canis lupus familiaris with 51 samples.

Results

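The genes described here were near silent in most of 51 canine hemangiosarcomas and abundant together in 3 of them, a tumour labelled as metastatic and a pair of spleen tumours called spleen 27 and spleen 17. They were chosen from the deposited expression table as the genes with a median under 1 FPKM over all 51 tumours and at least 10 FPKM in each of those 3 tumours, which gave 136 of 16382 genes. FPKM is the number of sequenced fragments of a gene per length of its transcript and per total of mapped fragments, so levels of different genes can be compared per length. Because the values in the 3 tumours chose the members, those values are described and not tested.

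Hemangiosarcoma is a malignant tumour of cells related to the lining of blood vessels, and the spleen, the right side of the heart and the liver are sites where it is often found in dogs. RNA from a piece of tumour mixes malignant cells with the normal cells of the organ and with blood. A gene used by few cell types is therefore read near 0 in a sample that lacks those cells and can be among the most abundant in a sample rich in them. In such bulk samples, fewer cells of a type and less RNA per cell cannot be told apart.

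The 51 tumours were labelled by tissue as metastatic tumour (n = 1), heart (n = 11), liver (n = 3), cutaneous (n = 1), metastatic abdominal mass (n = 1), abdominal mass (n = 1), undetermined histogenic origin (n = 1) and spleen (n = 32). The labels name no treatment. Of the 51 tumours, 26 were from females and 25 from males, 31 were from neutered animals, and 29 were from Golden Retrievers. The other breed labels were Portuguese Water Dog (4 tumours), German Shepherd Dog (3), Boxer, Keeshond and Labrador Retriever (2 each), and Bernese Mountain Dog, Bichon Frise, Border Collie Mix, Briard, Bullmastiff, Gordon Setter, Lab/Husky Mix, Saluki and Wolf Mix (1 each). The 11 heart tumours were from 8 males and 3 females, 6 of them neutered and 6 Golden Retrievers, aged 5.9 to 11.2 years at diagnosis with a median of 9.1. The 3 liver tumours were from females, 2 of them neutered and 1 a Golden Retriever, aged 9.6 to 10.9 years. The cutaneous tumour was from a neutered female Bichon Frise of 10.7 years, the metastatic abdominal mass from a neutered female Lab/Husky Mix of 9.0 years, the abdominal mass from an intact male Boxer of 8.7 years and the tumour of undetermined origin from an intact female Golden Retriever of 0.7 years. The 32 spleen tumours were from 16 males and 16 females, 20 of them neutered and 20 Golden Retrievers, aged 3.0 to 13.6 years with a median of 10.2. The metastatic tumour came from a neutered female Golden Retriever of 11.3 years, spleen 27 from a neutered female Golden Retriever of 13.6 years and spleen 17 from a neutered male Keeshond of 9.6 years. The label of the metastatic tumour does not name the organ it was taken from. The genes carry Ensembl identifiers that the table does not pair with names, and 0 of 16382 matched the symbol table used here, so tissue labels could not be checked against marker genes, no cell type list could be scored and members have no stated role.

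The libraries of the 3 tumours stood apart from the rest in composition, while their relative depths lay within the range of the others. Relative depth, solved from the steps between the lowest FPKM values, was 0.747 for the metastatic tumour, 0.896 for spleen 27 and 0.959 for spleen 17, against 0.526 to 2.14 in the other 48 tumours. Their 10 most abundant genes took 24.2%, 29.96% and 16.5% of the summed FPKM, against at most 11.3% in any other tumour. The upper quartile of FPKM was 26.1, 24.6 and 22.4, against 22.5 to 25.9 in the others. Their summed FPKM was 938627, 1057712 and 743192, against 405227 to 758452 in the others. Relative depth and these sums follow the scaling of the deposited values, which was not stated. The part these differences have in the results below was not tested.

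In the metastatic tumour the 136 members ran from 10.1 to 10178 FPKM, with a median of 228. They ran from 10.1 to 7961 FPKM in spleen 27, with a median of 74.3, and in the tumour spleen 17 from 10.4 to 2695 FPKM with a median of 44.6. The members took 10.8%, 4.64% and 3.21% of all summed FPKM in these tumours, and 0.00416% to 0.490% in the other 48. At least 100 FPKM was reached by 96 members of the metastatic tumour, by 56 of spleen 27 and by 45 of spleen 17, and by 41 members in all 3. Of the 100 most abundant genes of each library, 20 were members for the metastatic tumour, 9 for spleen 27 and 5 for spleen 17.

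**Figure D1:**
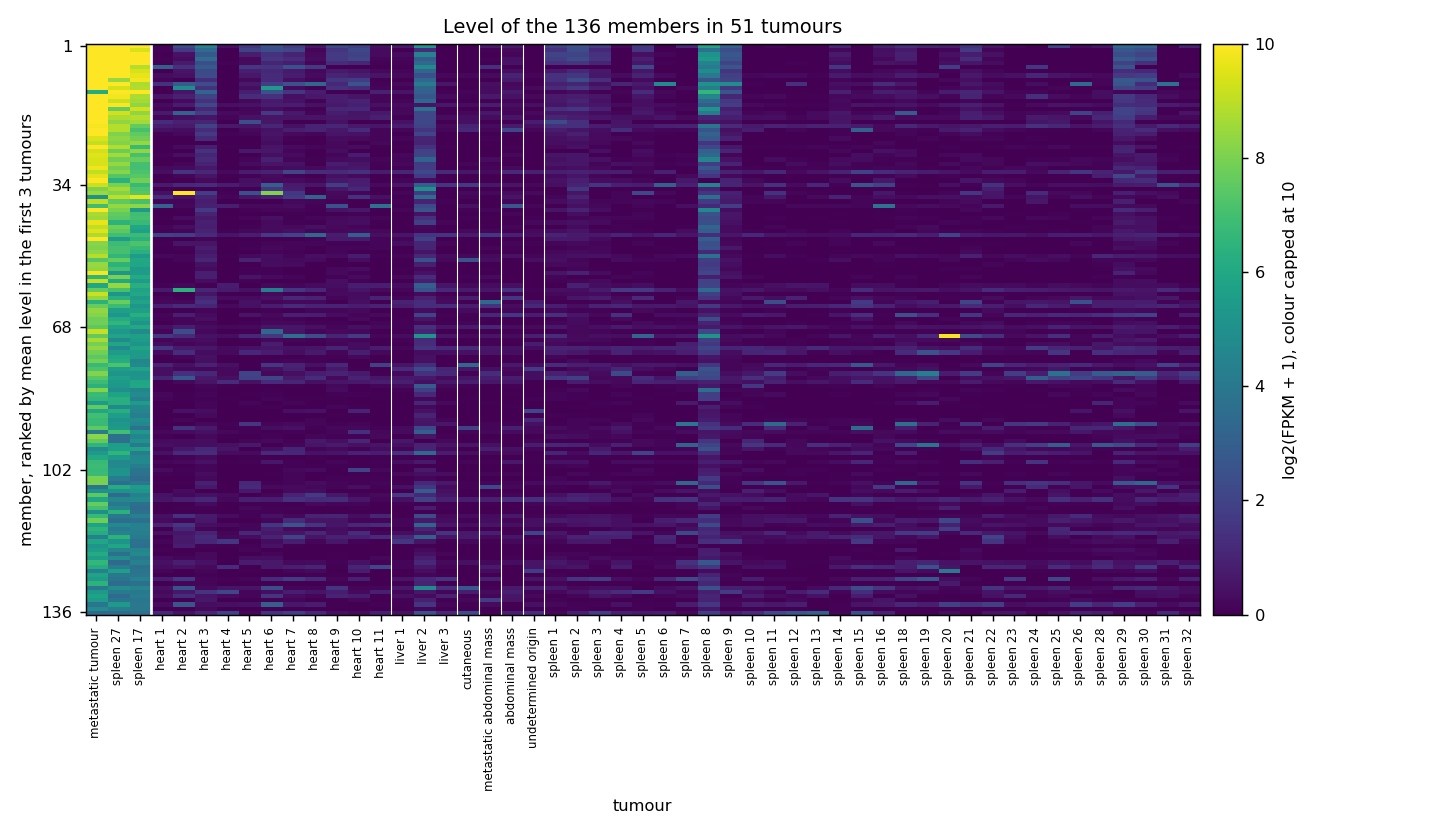
Level of each of the 136 members (rows, ranked by mean level in the first 3 columns) in each of the 51 tumours (columns), as log2(FPKM + 1) with the colour capped at 10. The metastatic tumour, spleen 27 and spleen 17 stand left of the thick line, thin lines separate the tissue labels, and spleen 8 and liver 2 show the same rows at a lower level.

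The sparse genes of the 3 tumours overlapped unequally. Among the 5234 sparse genes, those with a median under 1 FPKM, the metastatic tumour had 301 at 10 FPKM or more, spleen 27 had 191 and spleen 17 had 159. The 136 members were 45.2%, 71.2% and 85.5% of those genes. In the other 48 tumours the number of sparse genes at 10 FPKM or more ran from 3 to 280, with a median of 18. The highest was in the tumour of undetermined origin, where 0 members reached 10 FPKM. Of the 159 genes of spleen 17, 154 also reached 10 FPKM in the metastatic tumour and 139 in spleen 27. The metastatic tumour held 118 sparse genes at 10 FPKM that stayed under 10 FPKM in both spleens. At the edge of the rule, the lowest of the 3 values was 10.07, 10.10 and 10.37 FPKM for the last genes inside and 9.89, 9.84 and 9.64 FPKM for the first genes outside. The median over 51 tumours was 0.995 FPKM for the last gene inside and 1.0003 FPKM for the first outside.

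The order of abundance was shared most closely by the pair of spleen tumours. Across the 136 members, which are genes of the same 3 libraries and no replicates, the correlation of log2(FPKM + 1) was 0.88 between spleen 27 and spleen 17, 0.74 between the metastatic tumour and spleen 17, and 0.66 between the metastatic tumour and spleen 27. Spearman's rho was 0.84, 0.72 and 0.61 in the same pairs. The median ratio of the metastatic tumour to spleen 27 was 2.65 (quartiles 1.75 and 4.79) and ran from 0.0185 to 32.6. The median ratio of the metastatic tumour to spleen 17 was 4.29 (quartiles 2.72 and 6.87). The median ratio of spleen 27 to spleen 17 was 1.46 (quartiles 0.928 and 2.60). The members were therefore not scaled by 1 common factor between the tumours.

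**Figure D2:**
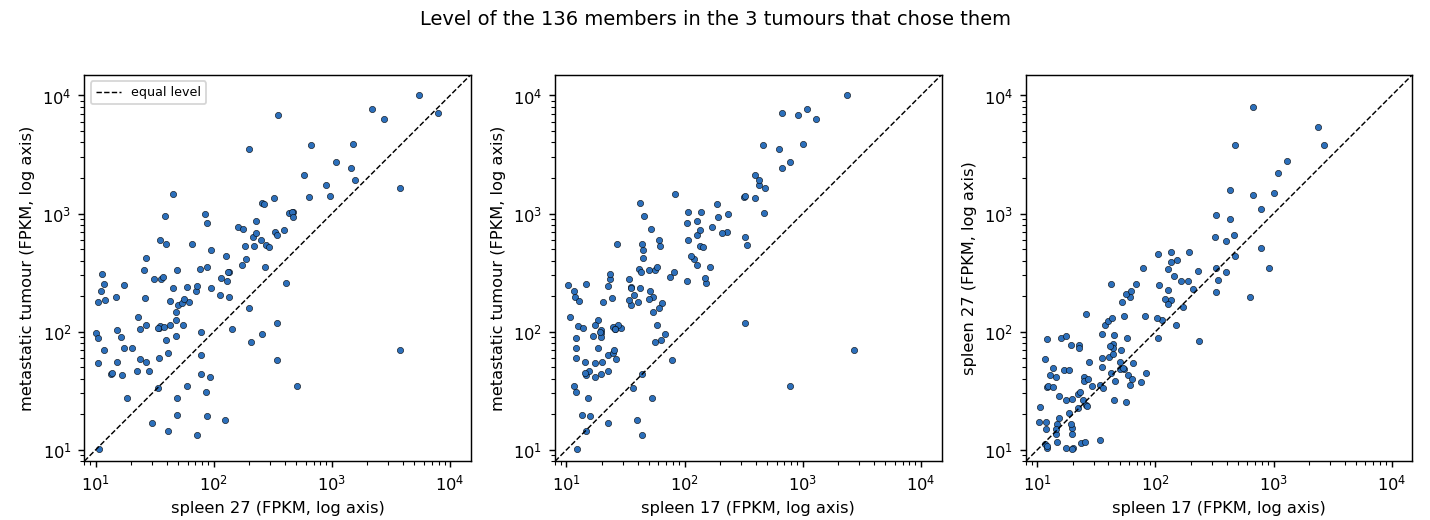
FPKM of the 136 members in pairs of the 3 tumours, on log axes, with 1 point per member and a dashed line of equal level. Most points lie above the line for the metastatic tumour, with 111 members higher there than in spleen 27 and 125 higher than in spleen 17.

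Members fell into subsets by which tumour carried most. The metastatic tumour had the highest value for 111 members, spleen 27 for 21 and spleen 17 for 4. There were 16 members at least 10-fold higher in the metastatic tumour than in spleen 27, with medians of 379, 26.1 and 39.1 FPKM in the metastatic tumour, spleen 27 and spleen 17. Another 25 members were higher in spleen 27 than in the metastatic tumour, with medians of 41.5, 92.9 and 43.3 FPKM in the same order. ENSCAFG00000011787, chosen after its values were seen, showed the widest such departure, with 70.1 FPKM in the metastatic tumour, 3786 FPKM in spleen 27 and 2695 FPKM in spleen 17. It was the most abundant member of spleen 17 and ranked 12 by mean level over the 3 tumours.

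The 2 members with the highest mean level over the 3 tumours were low in the other tumours. ENSCAFG00000011281 had 10178, 5425 and 2378 FPKM in the metastatic tumour, spleen 27 and spleen 17. Its level in the 11 heart tumours was 0.0820 FPKM at the lowest, 2.51 at the median and 19.3 at the highest. The 3 liver tumours had 0.602, 35.4 and 0 FPKM. The cutaneous tumour had 0 FPKM, the metastatic abdominal mass 0.609, the abdominal mass 0.594 and the tumour of undetermined origin 0. The other 30 spleen tumours had 0 FPKM at the lowest, 0.822 at the median and 53.2 at the highest, in spleen 8. Even the lowest of the 3 high tumours was 44.7 times the highest of the other 48.

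ENSCAFG00000013591 had 7140, 7961 and 674 FPKM in the same 3 tumours. In heart tumours it had 0 FPKM at the lowest, 2.26 at the median and 10.2 at the highest, and in the liver tumours 0, 1.42 and 0 FPKM. In the other spleen tumours it had 0 FPKM at the lowest and the median, and 12.7 at the highest. It was listed at 0 in the cutaneous tumour and in the tumour of undetermined origin, and had 0.0752 FPKM in the metastatic abdominal mass and 0.196 FPKM in the abdominal mass. The groups of heart, liver and spleen overlapped for both of these genes.

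The 2 members with the highest median in the other 48 tumours lay close to the rule's limit of 1 FPKM. ENSCAFG00000007261 had 278, 35.6 and 33.99 FPKM in the metastatic tumour, spleen 27 and spleen 17. Elsewhere it was spread over many tumours, reaching 1 FPKM in 22 of 48, with a median of 0.640 and a maximum of 3.12 FPKM in heart, 0.148, 1.71 and 1.13 FPKM in the liver tumours, and a median of 1.52 and a maximum of 18.3 FPKM in the other spleen tumours. ENSCAFG00000019537 had 524, 295 and 143 FPKM in the 3 tumours, a median of 1.16 and a maximum of 3.43 FPKM in heart, 1.09, 3.77 and 1.35 FPKM in liver, and a median of 0.811 and a maximum of 3.05 FPKM in the other spleen tumours. This gene was low in all 48 but listed at 0 in only 1 of them.

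Among the 48 tumours outside the 3 that the rule named, the members appeared together at reduced strength in a few. The number of members at 1 FPKM or more was 97 in spleen 8, 80 in liver 2, 45 in heart 3, 37 in spleen 29, 33 in heart 6 and 31 in spleen 30, and at most 26 in the remaining 42. The median over the 48 was 12. At 10 FPKM there were 24 members in spleen 8, 9 in liver 2 and at most 3 in any other. By the rule that at least 10% of members reach 10 FPKM, spleen 8 with 17.6% was the single weaker carrier, and liver 2 with 6.62% became another at 5 FPKM or at 5% of members. At 20 FPKM, or at 20% of members, no other tumour passed.

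**Figure D3:**
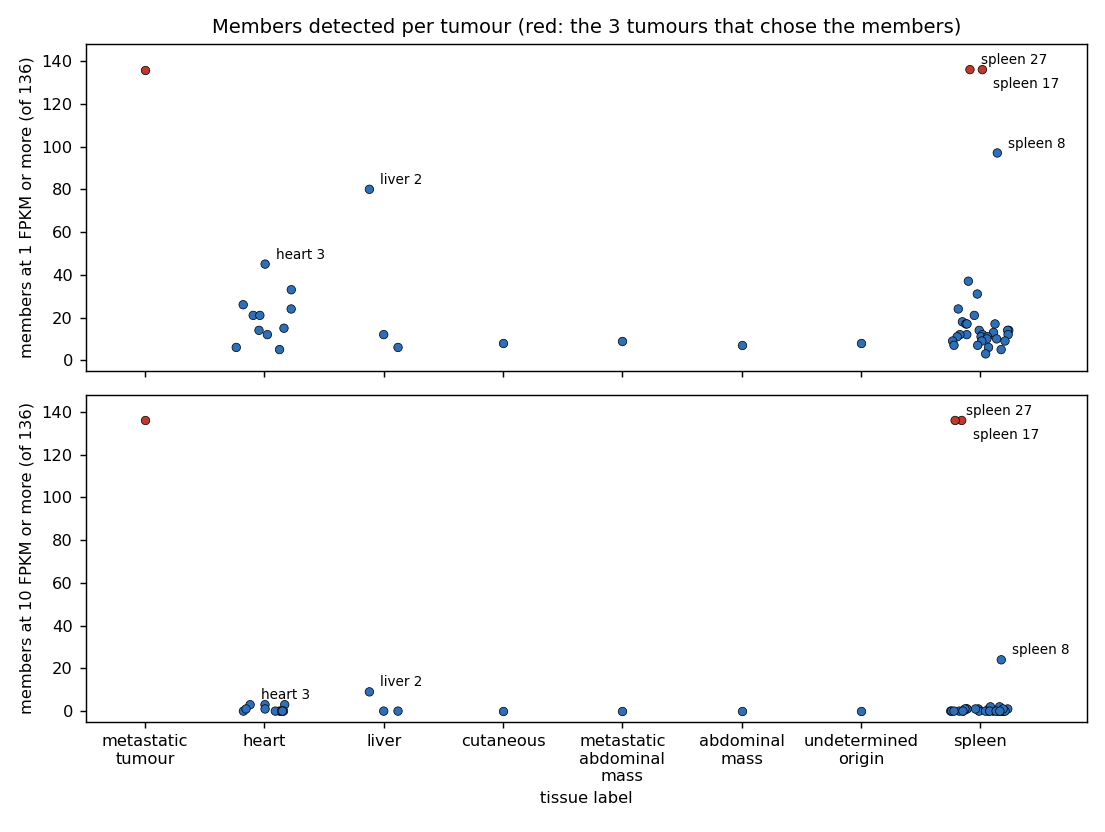
Number of the 136 members at 1 FPKM or more (upper panel) and at 10 FPKM or more (lower panel) in each tumour, by tissue label, with 1 point per tumour and random sideways spread. Red points are the 3 tumours that chose the members and stand at 136 by construction, while spleen 8 has 97 and 24, liver 2 has 80 and 9, and heart 3 has 45 and 3.

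By tissue label, the number of members at 1 FPKM or more ran from 5 to 45 in heart with a median of 21. The 3 liver tumours had 6, 80 and 12. The other 30 spleen tumours ran from 3 to 97 with a median of 12. The metastatic abdominal mass had 9, the tumour of undetermined origin 8, the cutaneous tumour 8 and the abdominal mass 7, and none of these 4 tumours had a member at 10 FPKM. The other tumour whose label contains the word metastatic thus lay below the median of the 48 for these genes. All 3 liver tumours lay in the range of the spleen tumours, liver 2 near its upper end and the others at or below its median.

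Spleen 8 came from a neutered male Golden Retriever of 6.0 years, liver 2 from a neutered female Golden Retriever of 9.6 years and heart 3 from a neutered female Portuguese Water Dog of 11.1 years. Their relative depths of 0.970, 1.03 and 1.46 lay within the range of the series. The median member stood at 2.28 FPKM in spleen 8, 1.28 FPKM in liver 2 and 0.564 FPKM in heart 3, against 0.0809 FPKM as the median of the 48 tumours. Relative to spleen 17, the median member reached 4.31% in spleen 8, 1.84% in liver 2 and 0.782% in heart 3. Relative to the metastatic tumour these shares were 0.887%, 0.420% and 0.174%.

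The members' order of abundance was partly shared by several of the 48 tumours. Spearman's rho across the 136 members with spleen 17 was 0.58 in spleen 8, 0.54 in liver 2 and 0.57 in heart 3, against a median of 0.08 and a range from -0.24 to 0.59 over the 48 tumours. The highest value, 0.59, belonged to spleen 9, where 24 members reached 1 FPKM. With the metastatic tumour the values in spleen 8, liver 2 and heart 3 were 0.59, 0.28 and 0.50, where the 48 ran from -0.31 to 0.63 and spleen 29 (0.63) and spleen 2 (0.53) were also high. With spleen 27 they were 0.54, 0.51 and 0.60, where the 48 ran from -0.33 to 0.60 and spleen 9 had 0.53. Liver 2 therefore had a lower value with the metastatic tumour than with either spleen. These are correlations across genes, given as a description.

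Split into 4 equal groups by mean level in the 3 high tumours, members at 1 FPKM in spleen 8 numbered 18, 19, 29 and 31 of 34 from the lowest to the highest group. In liver 2 they numbered 13, 16, 20 and 31, and in heart 3 they numbered 6, 3, 9 and 27. Of the 45 members detected in heart 3, 27 were thus in the most abundant group, while spleen 8 detected 18 of the 34 least abundant. Over the 48 tumours, the median member of the 4 groups reached 1 FPKM in 4, 2, 2 and 8.5 tumours, so the most abundant group was detected more widely in general. Spleen 8 and liver 2 shared 67 members at 1 FPKM, while 30 reached it in spleen 8 alone, 13 in liver 2 alone and 26 in neither.

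The subsets of members were unevenly represented in liver 2 and spleen 8. Of the 25 members higher in spleen 27 than in the metastatic tumour, 80.0% reached 1 FPKM in liver 2 and 60.0% in spleen 8. Of the 16 members at least 10-fold higher in the metastatic tumour, 8 reached it in liver 2 and 13 in spleen 8. Of the remaining 95 members, 54.7% reached it in liver 2 and 72.6% in spleen 8. The median of the 25 members was 3.66 FPKM in liver 2 and 1.45 FPKM in spleen 8. No test was run on these shares, since the members of a subset were measured in the same libraries.

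Other sparse genes served as a background for these counts. Of the 165 sparse genes with at least 10 FPKM in the metastatic tumour that are not members, 21.2% reached 1 FPKM in spleen 8 and 21.8% in liver 2, against 71.3% and 58.8% of the members. Those genes were also less abundant in the metastatic tumour itself, with a median of 22.6 FPKM against 228 FPKM for the members. Of the 4933 remaining sparse genes, 4.16% reached 1 FPKM in spleen 8 and 7.99% in liver 2. In the 46 tumours outside the 3 and outside spleen 8 and liver 2, the median share was 8.82% for members, 14.5% for the other sparse genes of the metastatic tumour and 7.58% for the remaining sparse genes.

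Co-variation of the members outside the 3 tumours was lower without spleen 8 and liver 2. The mean correlation between pairs of members was 0.38 over the 48 tumours, 0.18 over 46 without spleen 8 and liver 2, and 0.16 over 45 when heart 3 was left out too. The other sparse genes with any spread had 0.03 over the same 48, 46 and 45 tumours. Spleen 8 and liver 2 held the most members at 1 FPKM among the 48, so a fall without them was favoured by that choice. The members' value stayed above that of the other sparse genes in each set of tumours. Those other genes were not matched to the members by level, and the part level has in this difference was not tested. Members share libraries and low values, so these are descriptions.

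Most members stayed lower in the other 48 tumours, which the rule itself favours. Of the 136, 119 reached 1 FPKM in at least 1 of the 48 other tumours, 17 did not, and 33 reached 10 FPKM. For 130 members the lowest of the 3 high tumours exceeded each of the other 48, and for 75 it did so more than 10-fold. This separation is partly built in, since the rule asked for at least 10 FPKM in the 3 and a median under 1 FPKM. The same counts are not given here for other genes. The highest of the 48 values was in spleen 8 for 72 members and in liver 2 for 20, and those for the rest were spread over other tumours.

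For 2 members another tumour exceeded all 3. They were singled out after their values were seen. ENSCAFG00000015754 had 356, 271 and 163 FPKM in the metastatic tumour, spleen 27 and spleen 17, but 2214 FPKM in heart 2 and 267 FPKM in heart 6, and at most 4.43 FPKM in the other 46. ENSCAFG00000014473 had 189, 55.8 and 49.98 FPKM in the 3 tumours, 932 FPKM in spleen 20, 35.2 FPKM in liver 2 and 34.9 FPKM in spleen 8. In both genes a single tumour outside the 3 held the highest value of the series. ENSCAFG00000009613, another gene with its highest values in heart 2 and heart 6, is no member and had 0, 5.13 and 0 FPKM in the metastatic tumour, spleen 27 and spleen 17.

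Likeness of the 3 tumours was not confined to the genes that chose them. Over the 11148 genes with a median of 1 FPKM or more, none of which the rule could select, the metastatic tumour correlated most with spleen 27 (r = 0.89) and next with spleen 17 (r = 0.86), and its highest value with any other tumour was 0.79, for heart 2. Spleen 17 correlated most with spleen 27 (r = 0.89) and next with the metastatic tumour, and the highest other value was 0.85. Spleen 27 had spleen 17 and the metastatic tumour as its nearest 2, both at 0.89, and the highest other value was 0.87, for spleen 18. The median pair of tumours had 0.85. The metastatic tumour thus stood apart from the other 48 more than the pair of spleen tumours did, with a median r of 0.75 against 0.80 and 0.79.

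**Figure D4:**
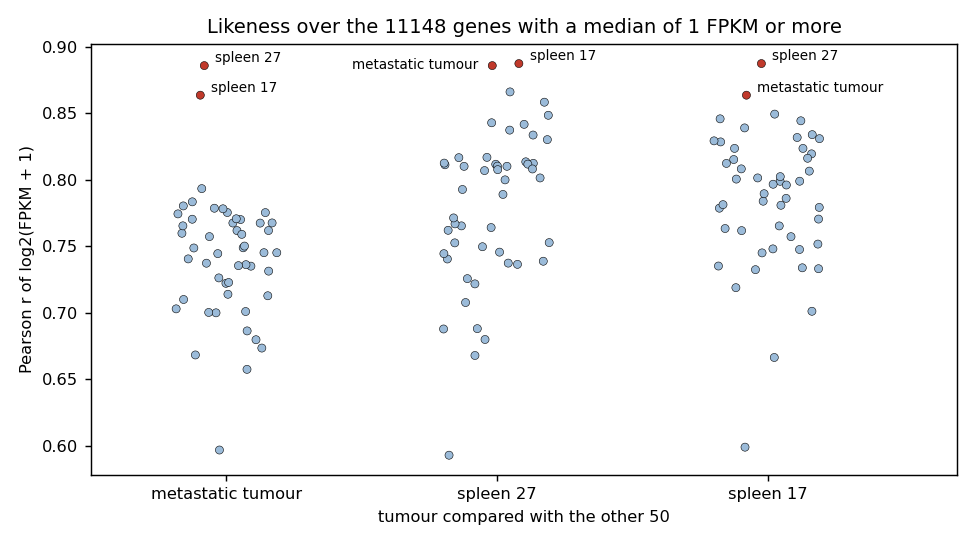
Pearson correlation of log2(FPKM + 1) over 11148 genes with a median of 1 FPKM or more, between each of the 3 tumours (horizontal axis) and the other 50, with 1 point per tumour and random sideways spread. The vertical axis does not start at 0. Red points are the other tumours of the 3 and stand at the top of each column, between 0.86 and 0.89.

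Among those 11148 genes, 610 were at least 4-fold above their median over 51 tumours in the metastatic tumour. Spleen 27 had 477 such genes and spleen 17 had 290. In all 3 tumours, 181 genes were at least 4-fold above their median, and other sets of 3 tumours were not counted. The most abundant gene of spleen 27, ENSCAFG00000020220, was of this kind and was kept out of the members by its median of 22.6 FPKM. It stood at 42909 FPKM in the metastatic tumour, 92324 FPKM in spleen 27 and 26354 FPKM in spleen 17. Of the 181 genes, 43.6% were at least 2-fold above their median in liver 2 and 28.7% in spleen 8, where 10.6% and 5.11% of all 11148 genes were. In the other 46 tumours this share of the 181 ran from 3.31% to 35.9% with a median of 17.96%. The value in spleen 8 lay within that range and the value in liver 2 above it.

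Whether member levels differed by organ was tested on tumours that the rule did not name, with 11 heart, 3 liver and 30 spleen tumours. The rule's median over all 51 tumours included these 44, so low member levels in many of them were part of the selection. A count of 0 members called therefore does not show that member levels are alike between groups. A single limma fit took all genes that reached 1 FPKM in 3 or more of these 44 tumours. Of the 136 members, 78 passed that filter. Between heart and spleen 0 members passed an adjusted p under 0.05, where 0.11% of all 12776 genes did. At an unadjusted p under 0.05 there were 12 members, 8 higher and 4 lower in heart, or 15.4% of the 78 against 11.7% of all genes tested, of which 6.06% were higher and 5.6% lower. Their median log2 difference was 0.09, and over all genes tested it was 0.00. The member with the smallest p, ENSCAFG00000009511, named after its values were seen, had a median of 2.15 FPKM in heart (0.331 to 9.04) and 0.724 FPKM in the other spleen tumours (0.284 to 3.24). Its log2 difference was 0.76 ± 0.20 (SE, limma adjusted p = 0.0986), and the 2 groups overlapped. It was called when heart 4, heart 5 or heart 11 was left out, with limma adjusted p = 0.0371, 0.0442 and 0.0291, where 0.282%, 0.392% and 0.305% of all genes were. Its levels in these tumours were 0.492, 0.752 and 0.331 FPKM, below the heart median. Leaving any of them out therefore favoured the call.

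Between liver and spleen 0 members passed in the same fit, where 0% of all genes did. At an unadjusted p under 0.05 there were 9 members, all higher in liver, or 11.5% of the 78 against 6.88% of all genes tested, of which 3.99% were higher. The smallest p belonged to ENSCAFG00000008348, named after its values were seen, with 1.31, 3.79 and 1.06 FPKM in the liver tumours and a median of 0.106 FPKM in the other spleen tumours (0 to 5.08, the highest in spleen 8). Its log2 difference was 1.22 ± 0.28 (SE, limma adjusted p = 0.0878). Without spleen 8 it was 1.30 ± 0.18 (SE, limma adjusted p = 0.000113), the single gene then called of 12756, or 0.00784%. Without liver 1, ENSCAFG00000010348, named after its values were seen, was called instead, with 2.40 ± 0.51 (SE, limma adjusted p = 0.0318). In that refit 0.0861% of all genes were called. The liver values of ENSCAFG00000010348, 0, 31.7 and 0 FPKM, rest on liver 2. For ENSCAFG00000008348, each liver tumour lay above the spleen median, and spleen 8 with 5.08 FPKM and spleen 4 with 1.13 FPKM overlapped them.

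The direction of the members' difference between liver and spleen turned when spleen 8 and liver 2 were left out. These 2 tumours were left out after they were seen to hold the most members at 1 FPKM outside the 3 high tumours. Shifts in the shares below are therefore partly built in by that choice, and the genes called without the 2 tumours also depend on it. Members share libraries and vary together, so the counts of signs are descriptions. Tested without a filter, so that all 136 members entered, 104 members (76.5%) were higher in liver than in spleen, where 43.8% of all genes tested were, with a median log2 difference of 0.21. With spleen 8 and liver 2 left out, the liver group held only liver 1 and liver 3. In that fit 26 of 136 members (19.1%) were higher in liver, where 42% of all genes tested were, with a median of -0.07. In that fit 1 member was called, ENSCAFG00000008348 again, with a log2 difference of 0.92 ± 0.17 (SE, limma adjusted p = 0.00369), where 0.45% of all genes were called. Between heart and spleen, 74 of 136 members (54.4%) were higher in heart with all 44 tumours, near the 48.5% of all genes tested. Without those 2 libraries 99 of 136 (72.8%) were, against 48.6% of all genes, and the median log2 differences of the members were 0.01 with and 0.07 without them. In the smaller fit ENSCAFG00000006835, named after its values were seen, was called, with 0.72 ± 0.15 (SE, limma adjusted p = 0.0188), where 0.0836% of all genes were. This gene had a median of 1.25 FPKM in heart (0.0997 to 5.28) and 0.299 FPKM in the other spleen tumours (0.0341 to 3.73, the highest in spleen 8). The next highest spleen value was 0.830 FPKM, in spleen 20, so leaving out spleen 8 favoured this call.

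Sex, neuter status, breed and age were tested over the same 44 tumours with organ as a covariate, and with sex as well for neuter status. Between 23 tumours of males and 21 of females 0 members passed the adjusted threshold, as did 0% of all genes, and at an unadjusted p there were 5 members, all lower in males, or 6.41% of 78 against 7.08% of all genes (4.41% lower). Between 26 tumours of neutered and 18 of intact animals 0 members passed, as did 0% of all genes, with 0 members at an unadjusted p under 0.05 against 4.82% of all genes. Between 26 tumours of Golden Retrievers and 18 of other breeds 0 members passed against 0.00783% of all genes, with 3 members at an unadjusted p, all higher, or 3.85% against 2.79% (1.16% higher). Per year of age, from 3.0 to 13.5 years, 0 members passed against 0% of all genes, with 9 members at an unadjusted p, all lower with age, or 11.5% against 6.06% (3.09% lower).

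The signs for breed, age and sex also turned with the same 2 libraries. These shifts too are partly built in by the choice of the 2, and the members are no replicates. Without a filter, 120 of 136 members (88.2%) were higher in Golden Retrievers than in other breeds, where 47.9% of all genes were. With spleen 8 and liver 2, both from Golden Retrievers, left out, 52 of 136 (38.2%) were, against 48% of all genes. For age, 17 of 136 (12.5%) had a positive slope with all 44 tumours and 95 of 136 (69.9%) without them, where 53.2% of all genes had one in both fits. For sex, 90 of 136 (66.2%) were higher in males with all tumours and 38 of 136 (27.9%) without the 2, against 50% and 49.6% of all genes. For neuter status, 108 of 136 (79.4%) were higher in neutered animals with all tumours, against 53.5% of all genes. Without the 2 libraries 72 of 136 (52.9%) were, which is near the 53% of all genes. All 3 tumours that chose the members, and spleen 8, liver 2 and heart 3, came from neutered animals, as did 31 of the 51. Of the next tumours by members at 1 FPKM, spleen 29 (37 members) came from a neutered animal. Heart 6 (33 members) and spleen 30 (31 members) came from intact animals.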

How the data were processed

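The authors deposited 1 table of FPKM values with 1 column per tumour. Per the labels' protocols, a Qiagen RNeasy kit gave the total RNA and an Illumina TruSeq kit the libraries. The tools FastQC 0.11.2, TopHat 1.4.1 and Cuffdiff, and the build CanFam3.1, are named per the submitters' processing notes. The version of Cuffdiff, the annotation, the strand setting and the scaling between libraries were not given in the sources used here.

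Groups follow the tissue labels, and replicate numbers follow sample order and pair nothing. No label says that the samples are from different dogs, though most pairs of samples differ in breed, sex, neuter status or age. Some pairs share all of these, such as the metastatic tumour and spleen 32, or spleen 25 and spleen 28. P-values cover only the spread between these samples, part of which may be technical. Members, marker lists and tests were chosen with earlier results of these data known. Relative depth was solved from the steps between low FPKM values, and 100% of library pairs lay within 0.05 (log2) of it. Fragment counts were not analysed here, so no counting interval is given.

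log2(FPKM + 1) was tested with limma 3.58.1 in R 4.3.3 (empirical Bayes with trend, two-sided, Benjamini-Hochberg over all genes tested, adjusted p under 0.05), after a check on simulated data. The scale understates changes of low genes. Named genes were the 2 members with the highest mean level in the 3 tumours and the 2 with the highest median elsewhere. Cell type marker lists could not be scored without symbols. All other genes named were chosen after their values were seen, also where this is not marked. The refit without each spleen tumour and the refit without a filter, spleen 8 and liver 2 were added after the data were seen.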

Additional observations from a re-analysis of the deposited data

How the results depend on the processing

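No paired analysis was possible because replicate numbers only follow sample order. The count of members called was 0 for heart, liver, sex, neuter status, breed and age with pseudocount 0.1, no filter, a mean filter of 1 FPKM, median-ratio rescaling, spleen 17 and spleen 27 added, robust empirical Bayes and without CHAD titles. Leaving out 1 tumour at a time gave 0 to 1 members for heart and 0 to 1 for liver, and 0 for the other 4 comparisons. The single members behind these were ENSCAFG00000009511 without heart 4, heart 5 or heart 11, ENSCAFG00000010348 without liver 1 and ENSCAFG00000008348 without spleen 8. Each heart or liver tumour left out was low for that gene, and spleen 8 was high, so leaving it out favoured the call. With no filter and both spleen 8 and liver 2 left out, 1 member was called for heart and 1 for liver.

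The rule gave 183 genes at 5 FPKM, 95 at 20 FPKM, 114 with a median under 0.5 FPKM, 167 under 2 FPKM and 141 after median-ratio rescaling, 135 of them shared with the 136. The number of other tumours passing the 10% rule was 1, or 2 at 5 FPKM and at 5% of members, 0 at 20 FPKM and at 20% of members, and 1 after rescaling. The metastatic label holds 1 tumour, so no spread is known for it.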
